A study of Mus musculus with 12 samples.

Results

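The kidneys compared here were left kidneys collected at day 0 of a unilateral ureteral obstruction study, 4 from Sprr2f knockout (KO) mice and 2 from wild type (WT) mice. They were chosen by genotype and day alone and make up 6 of the 12 libraries of the series, and 18093 genes with enough reads were tested. The labels give the strain as C57/BL6 and the age as 8 to 12 weeks, and they name the obstruction as a clamp on the left ureter. Day 0 kidneys carry the label of the obstruction series. Whether these animals had any surgery, at what hour the kidneys were taken, how the animals were fed, and what the knockout allele removes are not given in the sources used here. The title of the series names female mice, and the labels give no sex for single animals. Another 6 mice, 3 WT and 3 KO, were taken at day 5 and share no library with day 0. The question is which transcripts differ between the genotypes in the kidney before obstruction has acted.

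Sprr2f belongs to the small proline-rich proteins, which are cross-linked into the cornified envelope of squamous epithelia and are made in other epithelia under stress. The uninjured mouse kidney is dominated by proximal tubule, whose transcriptome is shaped by androgens, so that male and female kidneys differ in many transporters and cytochromes. Kidney transcripts also follow the circadian clock, in which Arntl (BMAL1) with Clock or Npas2 activates the Per, Cry, Nr1d and Ciart genes that feed back on it, and they respond to glucocorticoids through the glucocorticoid receptor.

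Sprr2f itself was almost silent at day 0 in both genotypes and therefore checks no label there. The gene (ENSMUSG00000050635, GRCm38 chromosome 3, 92365187 to 92366442, plus strand) had 2 and 0 reads in the WT libraries and 5, 2, 0 and 0 reads in the KO libraries. Pooled, this is 0.0535 CPM (a library's reads for the gene per 1000000 of its reads; exact 95% interval 0.00648 to 0.193) in WT and 0.0959 CPM (0.0385 to 0.198) in KO, and the intervals cover counting error only. At day 5 the same gene had 482, 447 and 1138 reads in WT against 0, 39 and 76 in KO, so only the day 5 libraries allow a check of the genotype labels. The other small proline-rich genes were also low: Sprr1a had 152 and 70 reads in WT and 222, 94, 144 and 62 in KO, and Sprr2a3 had 11 and 9 in WT and 12, 19, 23 and 16 in KO. Sprr2a3 did not overlap between the genotypes, but with 2 libraries against 4 the smallest two-sided p of the exact permutation test is 0.133, and that is the p it gave. The Sprr2 genes are close copies, so reads may be split among them.

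The 2 WT libraries were not alike, and this touches every result below. Although the title names female mice, the libraries fell into 2 kinds by their sex-chromosome transcripts. All 4 KO libraries and WT replicate 1 had summed Ddx3y, Uty, Kdm5d and Eif2s3y of 112 to 142 CPM with Xist at 0.329 to 1.15 CPM, whereas WT replicate 2 had 0.597 CPM of these Y-linked genes and 481 CPM of Xist. At day 5 the Y-linked libraries were 1 of 3 in each genotype. Only WT replicate 1 therefore matches the KO libraries, and genotype and sex-chromosome pattern are partly confounded. Depth was even, at 16567256 to 19398882 reads per library, and mitochondrial transcripts took 8.31 to 9.26% of reads at day 0. Nothing in the labels says which cages or litters the animals came from, and p-values here speak only for variation among the libraries at hand, which may be technical.

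Values below are scaled CPM, that is CPM divided by the library's TMM factor (a normalisation for composition), and differences are KO minus WT in log2(scaled CPM + 0.5) with the standard error (SE) from limma fitted to all 12 libraries as 4 groups. This scale understates changes of low genes. Genes were called at a Benjamini-Hochberg adjusted p under 0.05 over all 18093 genes. At day 0, 3 genes were called lower in KO (0.0166% of those tested) and 0 were called higher (0.00%). At an unadjusted p under 0.05 there were 2708 genes (14.97%), of which 1501 were higher (8.30%) and 1207 lower (6.67%). The edgeR quasi-likelihood test on the recovered reads also called 0 higher and the same 3 lower, while DESeq2 called 226 higher and 147 lower, among them the same 3. On data simulated for this comparison with 17733 genes, the limma test recovered 64% of 2-fold and 93% of 4-fold changes. The simulation held no sex-chromosome pattern difference and placed changes only in genes above a minimum level. Single libraries moved the counts: without WT replicate 1 they were 421 higher and 217 lower, without WT replicate 2 they were 1 and 2, without KO replicate 2 of day 5 they were 13 and 22, and without KO replicate 3 of day 5 they were 4 and 16. Without KO replicate 1 of either day, Noct alone was called, and Noct was called in every alternative that was run.

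Noct, Zbtb16 and Jarid2 fell in the knockout. Noct (ENSMUSG00000023087, chromosome 3, 51224447 to 51251644), which encodes nocturnin, a rhythmically expressed enzyme of metabolism, stood at 59.0 and 81.3 scaled CPM in WT and at 12.9, 14.1, 16 and 16.3 in KO. Every KO library lay far below both WT libraries, with means of 14.8 ± 1.61 (SD, n = 4) in KO and 70.2 ± 15.8 (SD, n = 2) in WT. The log2 fold change was -2.19 ± 0.20 (SE; limma adjusted p = 0.0015). The gene lies on the chromosome of Sprr2f but outside the 5 Mb on either side of it.

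Zbtb16 (ENSMUSG00000066687, chromosome 9, 48654297 to 48836222), a zinc finger transcription factor known as PLZF and a classic glucocorticoid-induced gene, had 25.8 and 27.5 scaled CPM in WT. Its KO values were 2.47, 4.56, 4.15 and 2.38, so the groups did not overlap and the 2 WT libraries nearly coincided. The log2 fold change was -2.85 ± 0.35 (SE; limma adjusted p = 0.0236). Leaving out WT replicate 2 kept the size, -2.80, but not the call (limma adjusted p = 0.229), and the call was also lost without KO replicate 1 of day 0 (adjusted p = 0.0762) and without KO replicate 1 of day 5 (adjusted p = 0.0601). It was lost as well with limma-voom on the recovered reads (adjusted p = 0.0877) and with only Y-linked libraries (adjusted p = 0.137).

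Jarid2 (ENSMUSG00000038518, chromosome 13, 44729474 to 44921643), an accessory subunit of Polycomb repressive complex PRC2, had 130 and 92.3 scaled CPM in WT and 54.3, 48.7, 53 and 55.2 in KO. The KO libraries were tightly grouped and below both WT libraries, which themselves differed. The log2 fold change was -1.05 ± 0.13 (SE; limma adjusted p = 0.0236). The Jarid2 call was lost when KO replicate 1, 2 or 3 of day 0, KO replicate 1 of day 5 or WT replicate 2 of day 5 was left out, at adjusted p between 0.0554 and 0.104, with the fold change between -1.063 and -1.004.

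None of the 3 was called at day 5, where the log2 fold changes were 0.07 ± 0.19 for Noct, 0.07 ± 0.33 for Zbtb16 and 0.12 ± 0.13 for Jarid2, and 0 genes in all were called by limma (0.00%; 1025 genes at an unadjusted p under 0.05, 0 calls by edgeR, and 37 higher and 3 lower by DESeq2). The day 0 WT libraries held the highest Noct and Jarid2 values of all 12. Noct was 21.8 to 35.3 scaled CPM over the 6 day 5 libraries, between the 2 day 0 groups, and Jarid2 was 48.5 to 65.0, near the day 0 KO level. Zbtb16 at day 5, at 19.1 to 45.7, spanned the WT level of day 0. The difference between the day 5 and the day 0 genotype effect was called for Noct alone (0.00553% of genes), at 2.26 ± 0.27 (limma adjusted p = 0.0356), and this test called no higher gene in 8 of the 12 fits that each left out 1 library. For Zbtb16 and Jarid2 that test gave adjusted p = 0.182.

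**Figure D1:**
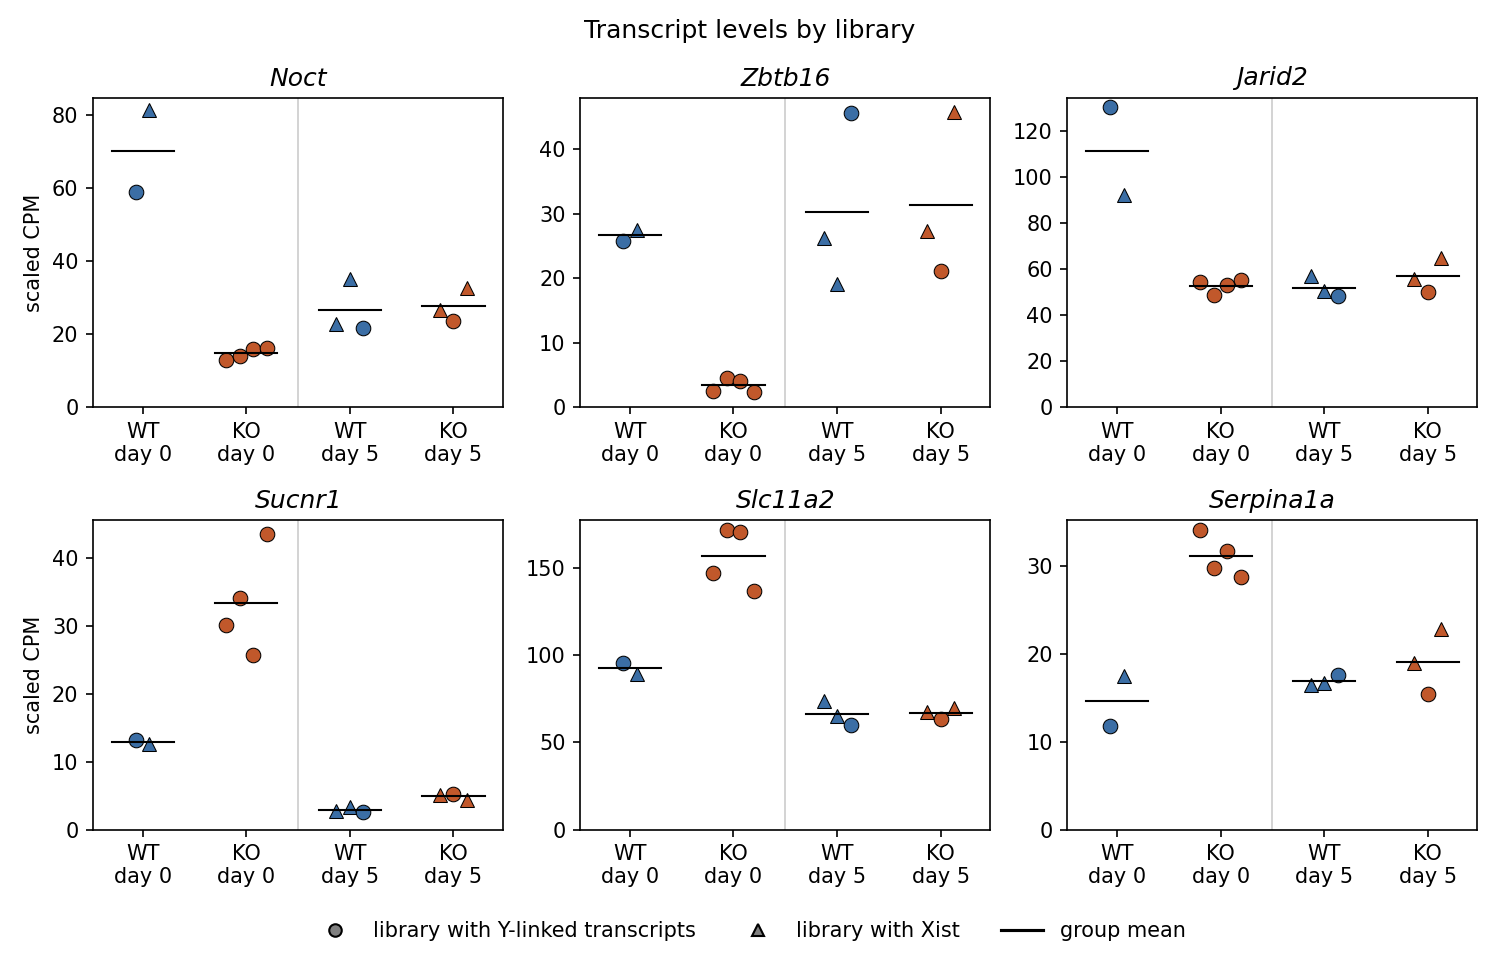
Scaled CPM of 6 genes in each library (points), with group means (lines); circles are libraries with Y-linked transcripts and triangles those with Xist. Noct, Zbtb16 and Jarid2 were lower in all 4 day 0 KO libraries than in both WT libraries and did not separate at day 5, and Sucnr1, Slc11a2 and Serpina1a were higher in all 4.

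A further rule asked for no overlap and for both WT libraries to be at least 1.5-fold from the KO mean, which 193 genes met on the higher side (1.07%) and 147 on the lower (0.812%). Ranked by p, the higher ones were led by Sucnr1, the receptor for extracellular succinate (chromosome 3, 60081869 to 60087566). It measured 13.3 and 12.6 scaled CPM in WT against 30.2, 34.2, 25.7 and 43.6 in KO, with a log2 fold change of 1.31 ± 0.19 (limma adjusted p = 0.0522). Sucnr1 was also the gene called higher when the genotype effect was averaged over both days, at 0.996 ± 0.13 (adjusted p = 0.0376), and at day 5 its 3 KO libraries, 4.4 to 5.3, lay above its 3 WT libraries, 2.6 to 3.4. That average called 2 genes in all (0.0111%), the other being Noct, and it called no higher gene in 8 of the 12 fits that each left out 1 library.

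Slc11a2, which encodes the ferrous iron transporter DMT1, had 95.9 and 89.2 scaled CPM in WT and 147, 172, 171 and 137 in KO. Serpina1a, an alpha-1-antitrypsin gene with near-identical neighbours among which reads may be split, had 11.7 and 17.5 in WT and 34.1, 29.8, 31.7 and 28.7 in KO. All 4 KO libraries were above both WT libraries for both genes, with log2 fold changes of 0.75 and 1.09 and a limma adjusted p of 0.0532 each. The rest of the 10 leading higher genes were Anxa13 (an epithelial annexin), Arhgef39, Sp5 (a Wnt-responsive transcription factor), Zfp101, Bco2 (a carotenoid-cleaving enzyme), Hdhd3 and Tlr12, with log2 fold changes between 0.65 and 1.26 and adjusted p up to 0.0813. Of these 10 genes, 8 had the same sign at day 5, some at values near 0. The day 5 log2 fold change was 0.02 ± 0.10 (SE) for Slc11a2, 0.09 ± 0.16 for Sp5 and 0.68 ± 0.18 for Sucnr1. Over all tested genes, the Pearson correlation of the day 0 and day 5 fold changes was 0.05.

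On the lower side the 10 leading genes were the 3 called ones and Cyp4a14, Map3k6, Foxo3, Akap12, Wee1, Zfp189 and Grasp. Foxo3, a transcription factor held in check by insulin signalling, had 179 and 231 scaled CPM in WT and 90.6, 73.7, 75.6 and 100 in KO. Wee1, the kinase that inhibits CDK1 and a known clock-controlled gene, had 20.2 and 24.1 in WT and 9.71, 10.1, 12 and 11 in KO. In both, the highest KO library was well under the lower WT library, with log2 fold changes of -1.26 and -1.01 and limma adjusted p of 0.0676 and 0.0813. Cyp4a14, a fatty acid omega-hydroxylase of a family of close copies, had 114 and 476 in WT and 27.8 to 48.4 in KO, so its size rests strongly on the second WT library. Only 3 of these 10 genes had the same sign at day 5.

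**Figure D2:**
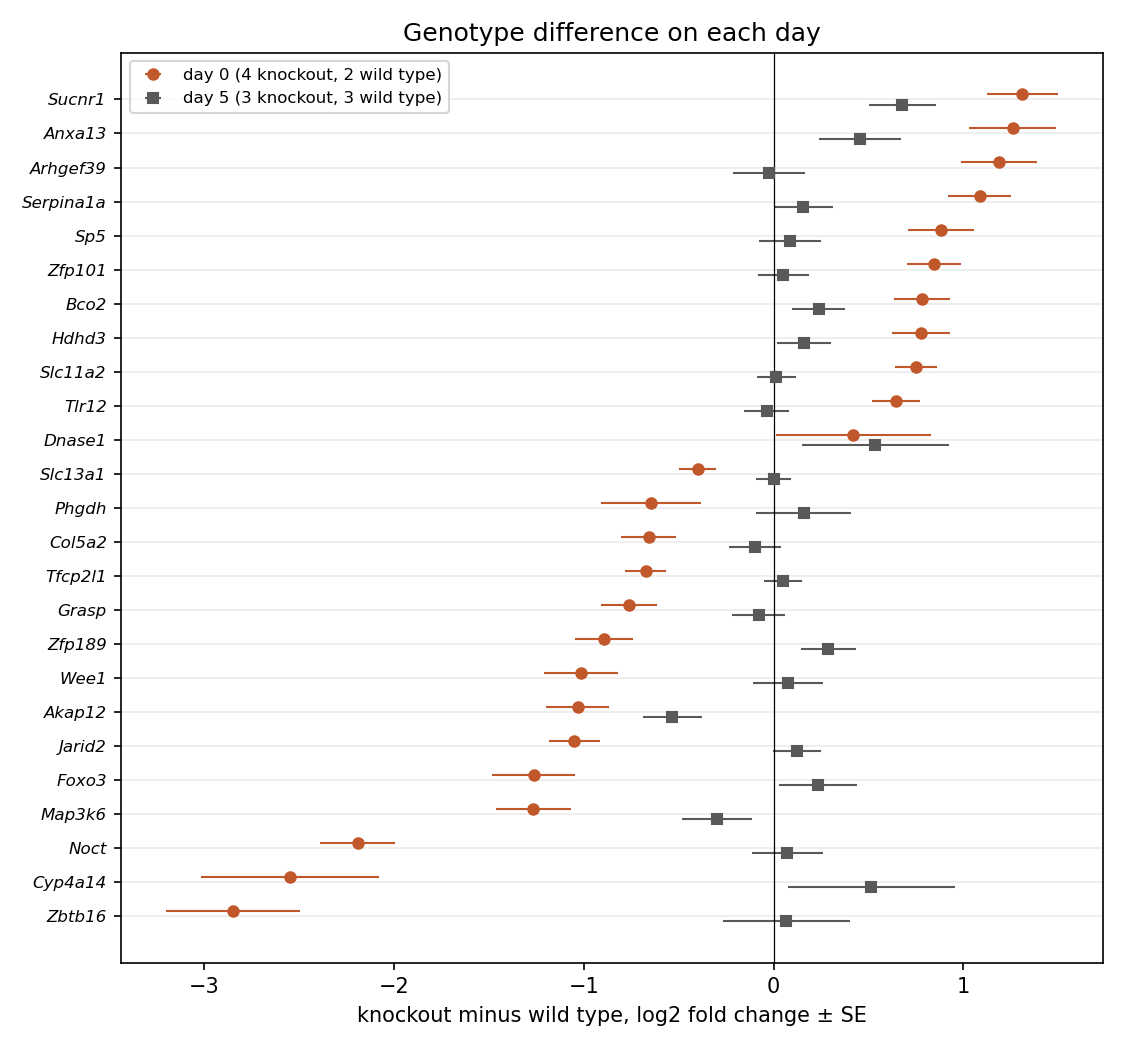
KO minus WT log2 fold change ± SE of the leading genes at day 0 (circles, 4 KO and 2 WT libraries) and day 5 (squares, 3 and 3). Noct, Zbtb16 and Jarid2 lie at -2.19, -2.85 and -1.05 at day 0 and near 0 at day 5, and Sucnr1 lies at 1.31 and 0.68.

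With the sex-chromosome pattern of each library as a covariate, limma called 4 genes higher (0.0221%) and 15 lower (0.0829%), and the same 3 genes were among the lower ones. Noct then had a log2 fold change of -2.004 (adjusted p = 0.000372), Zbtb16 of -2.89 (adjusted p = 0.00831) and Jarid2 of -1.04 (adjusted p = 0.0136). The 4 higher genes were Sucnr1 (1.31), Slc11a2 (0.80), Serpina1a (1.22) and Dnase1 (1.01), the last a secreted DNA-cutting enzyme. Dnase1 measured 245 and 546 scaled CPM in WT and 431 to 530 in KO, so the groups overlapped in the values themselves, and the Xist library was the higher of the 2 in WT. Lower genes further included Cyp4a14 (-1.94), the stress kinase gene Map3k6 (-1.43), the kinase scaffold gene Akap12 (-1.18), the serine synthesis enzyme gene Phgdh (-1.01), the collagen chain gene Col5a2 (-0.79), the collecting duct transcription factor gene Tfcp2l1 (-0.57) and the sulphate transporter gene Slc13a1 (-0.50). Pdk4 (-2.01) and Cdkn1a (-1.12) were called in that fit too and are described with the glucocorticoid-responsive genes. The fit held 1 pattern term for both days, so it took the pattern difference to be equal at day 0 and day 5. For Cyp4a14, WT replicate 1 minus WT replicate 2 was -2.05 log2 units at day 0. Y-linked minus Xist libraries was -0.90 at day 5. Its -1.94 from the covariate fit thus exceeded its KO mean minus WT replicate 1, which was -1.53.

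The 11 tested genes of 12 on a glucocorticoid-responsive list were mostly lower in KO. This list includes Noct and Zbtb16 and was chosen with earlier results of these data known, so it is a description: 2 of the 11 were called lower, and 8 of 11 had all 4 KO libraries below both WT libraries, where 12.4% of all tested genes did. None was higher without overlap (12.9% of all genes). The median log2 fold change of the list was -0.83, against -0.00 over all tested genes, and it was -1.09 against WT replicate 1 and -0.72 against WT replicate 2. At day 5 the same median was 0.29.

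Sgk1, the kinase that raises sodium channel activity, had 229 and 402 scaled CPM in WT and 103, 85.7, 98.2 and 155 in KO (log2 fold change -1.49 ± 0.29, limma adjusted p = 0.0813). Cdkn1a, the CDK inhibitor p21, had 31.2 and 25 in WT and 12.3, 16, 11.9 and 16.9 in KO. Pdk4, which holds back pyruvate dehydrogenase in fasting, had 159 and 104 in WT and 43.8, 64.8, 40.4 and 47.3 in KO. These genes separated completely at day 0 without passing the threshold. Tsc22d3 (GILZ), a direct glucocorticoid receptor target named after its values were seen, had 87.5 and 85.2 in WT and 44.3, 44.3, 64.2 and 59.7 in KO. Fkbp5, the receptor's co-chaperone, did not separate: KO replicate 2 had 121, between the 133 and 105 of WT, while the other KO libraries had 48.6 to 59.6.

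The circadian clock list gave 0 called genes of 19 (2 higher and 7 lower at an unadjusted p under 0.05 by limma). All 4 KO libraries were below both WT libraries for 7 of 19 (Per1, Per2, Per3, Ciart, Usp2, Bhlhe41 and Nr1d2), where 12.4% of all genes were, and above both for 2 of 19 (Npas2 and Arntl), where 12.9% were. Per1, a repressor of the clock that is also glucocorticoid-induced, had 135 and 183 scaled CPM in WT and 36.7, 46.9, 71.8 and 76.4 in KO (log2 fold change -1.49 ± 0.35, limma adjusted p = 0.115). Ciart, a repressor of the BMAL1 and CLOCK dimer, had 9.81 and 19.3 in WT and 1.85, 4.56, 8.17 and 3.51 in KO. Usp2, a rhythmic deubiquitinase gene, had 252 and 297 in WT and 126, 136, 157 and 134 in KO (-0.98 ± 0.20, adjusted p = 0.0813).

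The 2 of 19 on the high side (10.5%, under the share of all genes) were Npas2 and Arntl, and neither was called. Npas2 had 6.96 and 3.93 scaled CPM in WT and 12.9, 17.9, 13 and 13.5 in KO (1.35 ± 0.28, limma adjusted p = 0.0874). Arntl had 8.42 and 9.43 in WT and 18.1, 17.6, 12.1 and 15.8 in KO. Its partner Clock stayed in 1 range, at 47.9 and 48.1 in WT and 44.6 to 52.0 in KO. The repressor Nr1d1 and the output factor Dbp overlapped, at 53.6 and 102 against 38.4 to 62.7 and at 36.1 and 40.9 against 18.6 to 37.9. The list's median, -0.44, was -0.03 against WT replicate 1 and -0.56 against WT replicate 2. Ciart, Arntl, Clock, Nr1d1 and Dbp were named after their values were seen. The hour of collection is not known for any animal, and its part in these values was not tested.

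**Figure D3:**
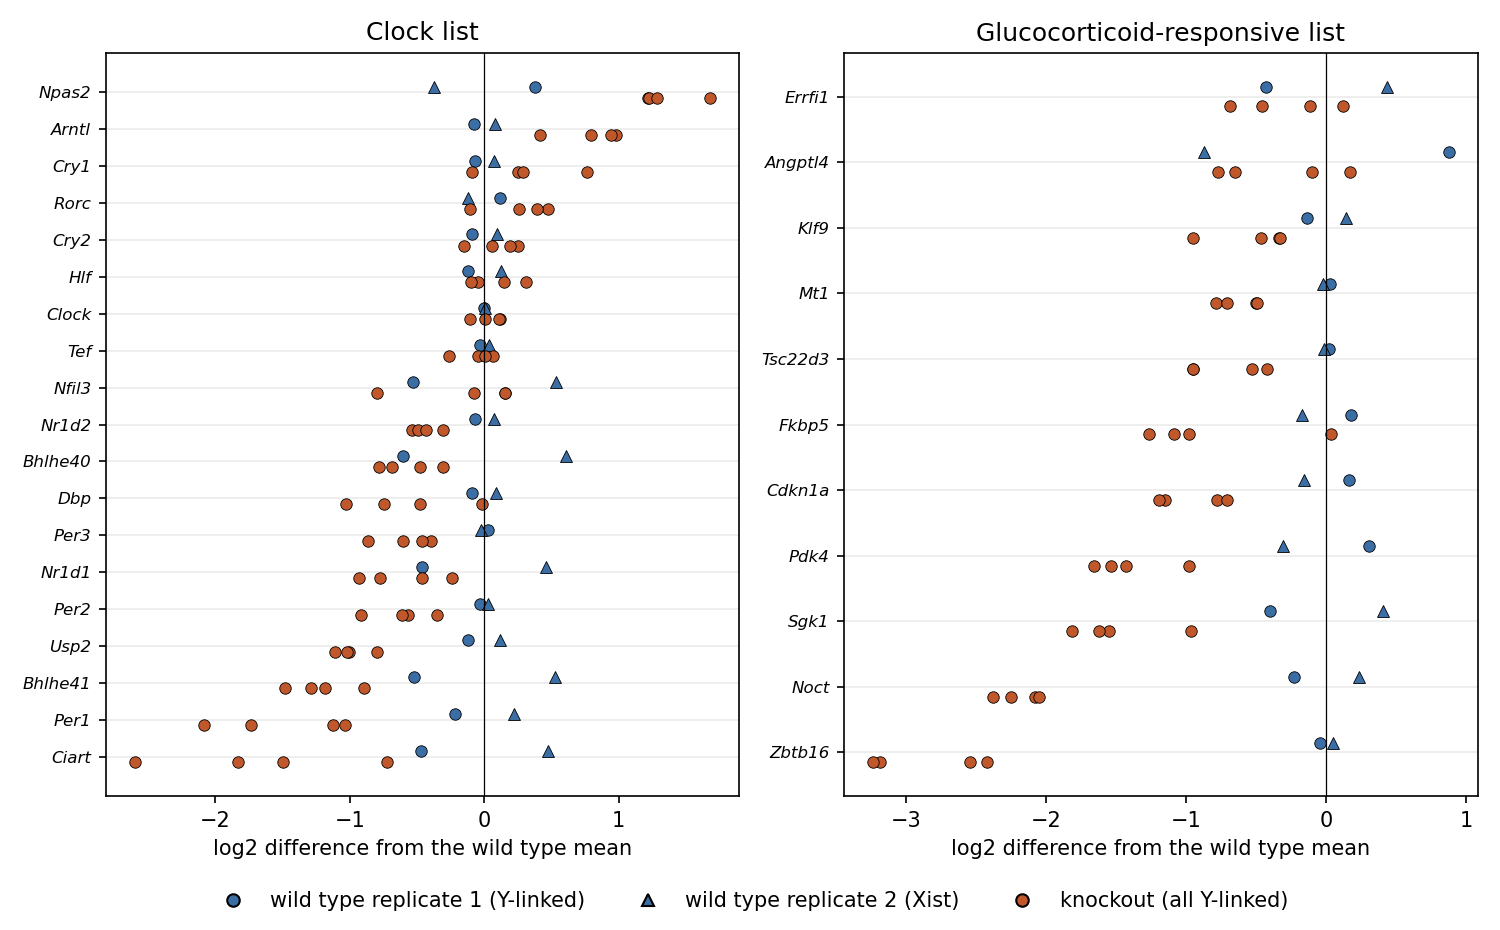
Each point is 1 day 0 library, as the log2 difference from the mean of the 2 WT libraries, for the tested genes of the clock list (left) and the glucocorticoid-responsive list (right); blue is WT, orange is KO. The KO points lie left of both WT points for 7 of 19 clock genes and 8 of 11 glucocorticoid-responsive genes. They lie right of both for Npas2 and Arntl, 2 of 19 clock genes. Over all tested genes these shares were 12.4% on the left and 12.9% on the right.

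The sequences before the start sites of Noct, Per1 and Ciart are shown because these genes were low together and the clock's regulators bind known short motifs. They are the 250 bases upstream of the start, 5′ to 3′ on the gene's strand, from RefSeq on GRCm38.p6, with matches in capitals. The motifs searched were the E-box CACGTG, bound by BMAL1 with CLOCK or NPAS2, and a D-box written TTATGNAA, bound by DBP and its relatives, on both strands. Noct lies at chr3:51224197-51224446 (plus), Per1 at chr11:69098699-69098948 (plus) and Ciart at chr3:95882229-95882478 (minus).
Noct: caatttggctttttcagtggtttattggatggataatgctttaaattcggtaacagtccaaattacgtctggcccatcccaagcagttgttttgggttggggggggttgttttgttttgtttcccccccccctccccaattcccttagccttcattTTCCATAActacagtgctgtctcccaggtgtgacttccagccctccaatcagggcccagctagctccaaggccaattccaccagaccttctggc
Per1: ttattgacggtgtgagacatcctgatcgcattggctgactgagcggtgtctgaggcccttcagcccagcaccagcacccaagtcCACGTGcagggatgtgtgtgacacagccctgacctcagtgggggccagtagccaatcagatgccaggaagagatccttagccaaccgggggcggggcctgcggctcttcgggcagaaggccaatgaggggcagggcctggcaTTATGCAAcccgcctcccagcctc
Ciart: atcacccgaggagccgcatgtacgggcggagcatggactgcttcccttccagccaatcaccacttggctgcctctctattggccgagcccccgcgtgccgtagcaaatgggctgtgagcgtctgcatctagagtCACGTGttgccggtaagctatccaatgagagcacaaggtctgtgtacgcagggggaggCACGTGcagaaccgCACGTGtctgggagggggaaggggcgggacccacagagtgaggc

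Noct held 1 D-box match and 0 E-box matches, Per1 held 1 of each (this is the start site with more matches of the 2 listed), and Ciart held 3 E-box matches. Over the window of 300 bases that also takes in 50 bases after the start, 5 of 16 clock genes with an entry had an E-box match against 8.09% of 27025 genes, and 2 of 16 had a D-box match against 3.99%. For the glucocorticoid-responsive list these were 2 of 10 and 1 of 10. A match describes letters only and shows no binding.

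The 2 WT libraries differed from each other in genes of male and female kidney, among others. Among 13379 genes with a mean log2 CPM of at least 1, WT replicate 2 lay at least 2-fold outside the range of the other 5 day 0 libraries for 257 genes, WT replicate 1 for 12, and the KO libraries for 7, 4, 1 and 5. The KO mean differed at least 2-fold from WT replicate 1 for 90 genes and from WT replicate 2 for 508, and the 2 WT libraries differed that much from each other for 482. Only 18 genes were 2-fold higher and 13 were 2-fold lower in KO against both.

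Slc7a13, a cystine and glutamate transporter of the male proximal tubule, had 938 and 6.77 scaled CPM in the WT libraries and 936 to 1058 in KO. Slco1a1, an androgen-dependent organic anion transporter, had 244 and 1.03 in WT and 234 to 523 in KO. WT replicate 1 sat inside the KO range for both, where the KO mean minus WT replicate 1 was 0.08 and 0.43 log2 units and the KO mean minus WT replicate 2, the Xist library, was 7.10 and 7.75. The Xist library was instead the high one for Prlr, the receptor of prolactin, which had 14.8 and 327 in WT and 8.51 to 31.3 in KO, and the amino acid transporter gene Slc7a12 had 4.72 and 248 in WT and 0.835 to 6.31 in KO. Foxq1, Bhmt and Abcb1b had the same form, at 5.02, 3.21 and 4.42 in WT replicate 1 and 56.5, 32.7 and 37.4 in WT replicate 2. In the day 5 comparison of Y-linked and Xist libraries described below, Bhmt was called (limma adjusted p = 0.0201). Foxq1 (adjusted p = 0.144) and Abcb1b (adjusted p = 0.0685) were not.

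On the male-high renal list, 9 of 15 tested genes were higher in all 4 KO libraries than in both WT libraries (12.9% of all genes), 0 were lower (12.4%), and the median log2 fold change was 2.61. That median was 0.35 against WT replicate 1 and 4.47 against WT replicate 2. On the female-high list 4 of 10 were lower (12.4% of all genes) and 2 of 10 higher (12.9%) without overlap, the higher ones being Cyp2a4 (1.60) and Gstp2 (0.85). In these data Cyp2a4 went against its place on that list. It had 85.5 in WT replicate 1 and 35.9 in WT replicate 2. At day 5 it was higher in Y-linked than in Xist libraries (1.05 log2 units, limma adjusted p = 0.00504). Gstp2 had 0.787 and 1.03 in WT and was not called in that day 5 comparison (adjusted p = 0.892). The median of the female-high list was -1.63, which was -0.48 against WT replicate 1 and -2.86 against WT replicate 2. Some male-high genes were above the Y-linked WT library too: Cyp4a12a, an arachidonic acid hydroxylase gene with a close copy, had 10.8 and 1.69 in WT and 42.6, 96.0, 50.9 and 25.4 in KO, and Cyp7b1, an oxysterol hydroxylase gene, had 82.2 and 2.90 in WT and 112 to 202 in KO. Neither passed the test, at limma adjusted p of 0.162 and 0.218, or with the pattern as covariate, at 0.0959 and 0.11.

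The difference between Y-linked and Xist libraries was also estimated at day 5, in other animals. With genotype as a covariate, 1015 of 16979 genes (5.98%) were called between Y-linked and Xist libraries at day 5 (502 higher and 513 lower, or 42 and 43 without KO replicate 2 of day 5, which leaves 1 Y-linked library), and 992 of them were autosomal and tested at day 0. The same sign was found for 759 of these (76.5%) in WT replicate 1 minus WT replicate 2, for 799 (80.5%) in the KO mean minus WT replicate 2 and for 614 (61.9%) in the KO mean minus WT replicate 1. The median difference in the day 5 direction was 0.35, 0.40 and 0.07 log2 units in that order, where its size at day 5 was 0.72. The first and the second share WT replicate 2, and the second and the third share the KO libraries. The pattern's part in any single gene's day 0 difference was tested only through the covariate and through the libraries with Y-linked transcripts alone. The latter hold 1 WT library at day 0 and 1 library of each genotype at day 5, so their spread rests on the day 0 KO libraries. There the log2 fold change was -1.97 for Noct, -2.80 for Zbtb16 and -1.30 for Jarid2. Car3 was higher in KO there, and its 2 WT libraries were unlike. It had 20.6 and 57.7 scaled CPM in WT and 66.8 to 87.5 in KO (limma adjusted p = 0.319 over all 12 libraries).

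**Figure D4:**
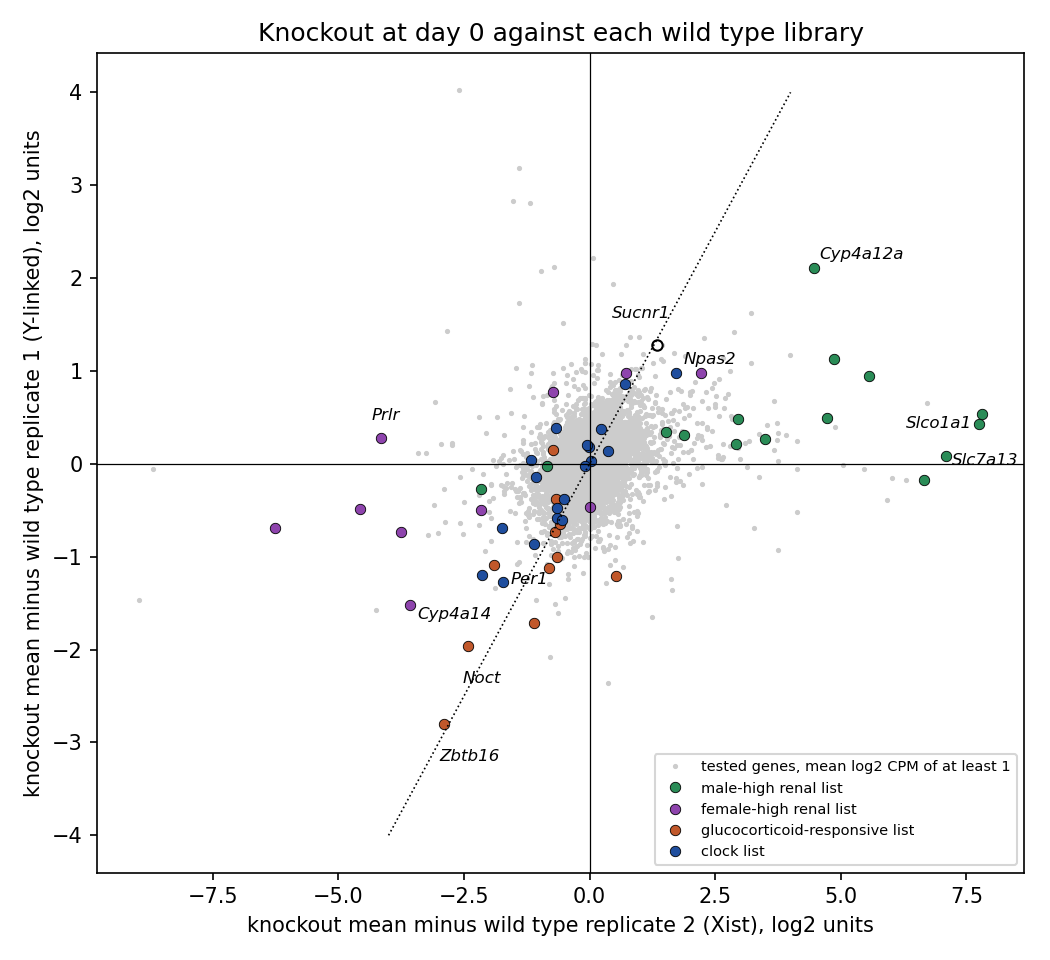
KO mean minus WT replicate 2 (x axis) and minus WT replicate 1 (y axis), in log2 units, at day 0; grey points are tested genes with a mean log2 CPM of at least 1, colours mark gene lists and the dotted line marks equal differences. Noct and Zbtb16 lie near the line, while Slc7a13, Slco1a1 and Prlr lie far along the x axis and near 0 on the y axis.

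Because the series concerns reactive oxygen species, redox genes were read as lists. Of 25 antioxidant enzyme genes, 0 were called by limma (8 higher and 1 lower at an unadjusted p under 0.05), 11 were higher in all 4 KO libraries than in both WT libraries (12.9% of all genes) and 1, the metallothionein gene Mt1, was lower (12.4%). The median log2 fold change was 0.21, and 0.14 and 0.28 against WT replicates 1 and 2. Sod1, the cytosolic superoxide dismutase gene, had 736 and 576 scaled CPM in WT and 900, 994, 873 and 764 in KO. Prdx5, a peroxiredoxin gene, had 2153 and 1692 in WT and 2301 to 2878 in KO, and Msrb1, a selenoprotein repairing oxidised methionine, had 221 and 121 in WT and 257 to 353 in KO. In all of these WT replicate 2 was the lowest library. Their limma adjusted p values were between 0.15 and 0.178.

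The 28 NRF2 target genes had a median of -0.00, with 6 higher (12.9% of all genes) and 5 lower (12.4%) without overlap and 0 called (2 higher and 6 lower at an unadjusted p under 0.05). Gsta4, a glutathione transferase gene, had 53.8 and 229 in WT and 35.4 to 43.7 in KO, and Gsr, glutathione reductase, had 179 and 142 in WT and 197 to 207 in KO. Of 11 tested NADPH oxidase genes, which make superoxide or hydrogen peroxide, 0 were called (1 higher and 0 lower at an unadjusted p under 0.05), 1 was higher without overlap (12.9% of all genes) and 1 lower (12.4%).

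The nuclear oxidative phosphorylation genes were higher without overlap for 11 of 32 (12.9% of all genes) and lower for 0 of 32 (12.4%), with a median log2 fold change of 0.12 and 0 called (4 higher and 0 lower at an unadjusted p under 0.05). The 13 mitochondrial genome transcripts had a median of -0.01. Of 22 genes of fatty acid oxidation and PPAR alpha, the fasting regulator of lipid use, 9 were lower (12.4% of all genes) and 1 higher (12.9%) without overlap and 0 were called (8 lower and 1 higher at an unadjusted p under 0.05), with a median of -0.16, which was -0.18 against WT replicate 1 and -0.0023 against WT replicate 2. Cyp4a10, a fatty acid hydroxylase gene, had 422 and 433 scaled CPM in WT and 250 to 334 in KO, and Hadha, a subunit of the mitochondrial trifunctional protein, had 321 and 366 in WT and 263 to 290 in KO.

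Of 19 cholesterol synthesis genes, 8 were higher (12.9% of all genes) and 1 lower (12.4%) without overlap, with a median of 0.19 and 0 called (6 higher and 1 lower at an unadjusted p under 0.05). Mvd, the mevalonate diphosphate decarboxylase gene, had 71.3 and 46.2 scaled CPM in WT and 76.5 to 97.4 in KO, and Sc5d, a sterol desaturase gene, had 43.5 and 39.7 in WT and 50 to 55.3 in KO. Of 18 unfolded protein response genes, 0 were called (1 higher and 2 lower at an unadjusted p under 0.05 by limma), 3 were lower (12.4% of all genes) and 1 was higher (12.9%) without overlap, and the median was -0.23 against WT replicate 1 and 0.02 against WT replicate 2. Among the lower ones, Dnajb9, an ER co-chaperone gene, had 67.2 and 65.3 in WT and 44.3 to 46.1 in KO (-0.55, adjusted p = 0.0622), and Herpud1, an ER degradation gene, had 515 and 694 in WT and 274 to 330 in KO. The higher one was Edem1, also a gene of ER degradation, at 115 and 79.4 in WT and 118 to 136 in KO (0.37, limma adjusted p = 0.203).

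**Figure D5:**
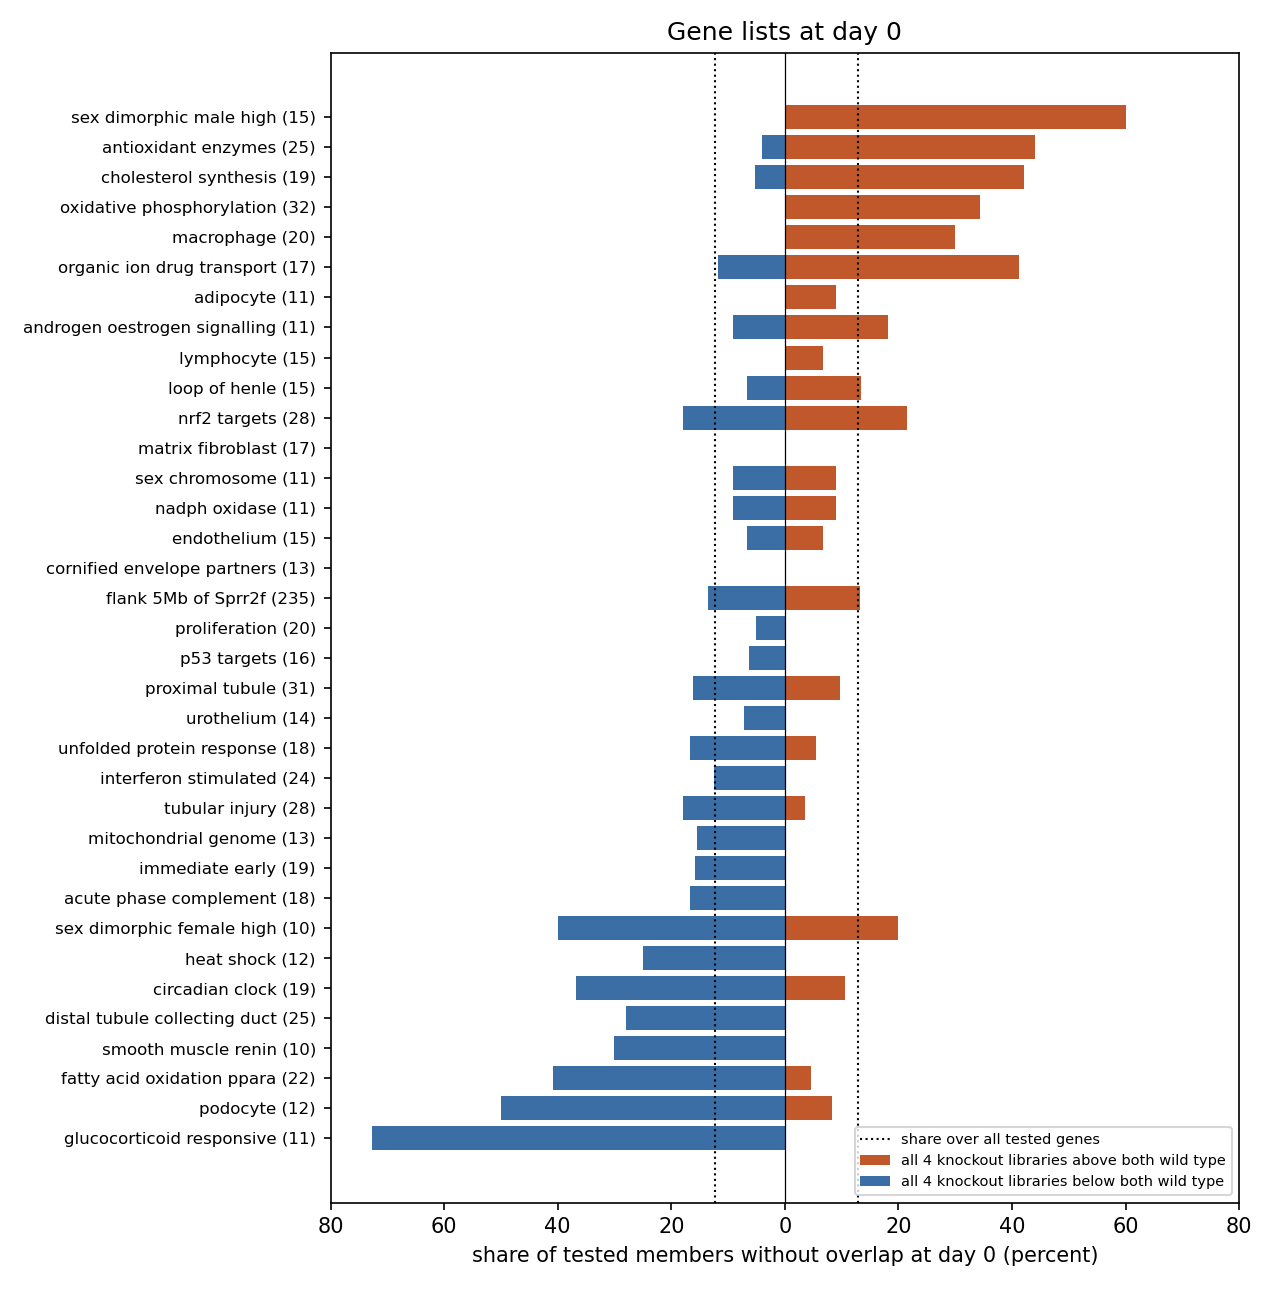
Share of tested members, in percent, of lists with at least 10 tested genes (number tested in parentheses) whose 4 KO libraries all lay above (orange, right) or all below (blue, left) both WT libraries at day 0. Dotted lines mark the shares over all tested genes, 12.9% and 12.4%. Not drawn are the glycolysis and hypoxia list (20 tested, 10% above and 15% below) and chromosome 3 as a whole. The glucocorticoid-responsive list reaches farthest to the left and the male-high renal list farthest to the right. Lists were chosen with earlier results of these data known, and the glucocorticoid-responsive list includes Noct and Zbtb16, so this order is a description.

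No cell type marker list held a gene called by the test without the covariate. Proximal tubule markers, which define the tissue, summed to 39099.7 and 41620.4 scaled CPM in the 2 WT libraries and to between 37779 and 43510.4 in KO. The macrophage list had 6 of 20 higher (12.9% of all genes) and 0 lower (12.4%) without overlap, with a summed level of 686 and 657 in WT and 723 to 1112 in KO. Its leading members by p included class II antigen presentation genes. Among these, H2-Ab1 had 97.2 and 107 in WT and 194, 145, 139 and 110 in KO (limma adjusted p = 0.200). The chemokine receptor gene Cx3cr1 had 4.54 and 3.93 in WT and 6.19 to 8.88 in KO (adjusted p = 0.207). Of the 20 macrophage genes, 14 overlapped. In bulk RNA, a change in the number of cells of a type and a change in RNA per cell cannot be told apart.

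The podocyte list had 6 of 12 lower (12.4% of all genes) and 1 of 12 higher (12.9%) without overlap and a median of -0.42, which was -0.12 against WT replicate 1 and -0.71 against WT replicate 2. Nphs1, the slit diaphragm protein nephrin, had 25.3 and 43.6 in WT and 18.1, 19.2, 19.6 and 23.3 in KO, so the KO libraries were close to the first WT library. Of 10 smooth muscle and renin cell genes, 3 were lower without overlap (12.4% of all genes), 0 were higher (12.9%) and 7 overlapped, with a median of -0.22 against WT replicate 1 and -0.03 against WT replicate 2. Among the 3, Myh11, smooth muscle myosin, had 47.2 and 46.9 in WT and 24.9 to 31.5 in KO, and Acta2 had 59.2 and 57.3 in WT and 34.8 to 48.2 in KO. The adipocyte list summed to 2379 and 912 in WT and 1777 to 2498 in KO, but most of this was Lpl, lipoprotein lipase, with 2287 and 602 in WT and 1601 to 2287 in KO. Of its 11 tested genes 1 was higher without overlap (12.9% of all genes), and the median was 0.76, or 2.04 against WT replicate 1 and -0.85 against WT replicate 2. The fat markers Adipoq and Cfd had 0 and 0.484 scaled CPM in WT replicate 1, 9.73 and 96.6 in WT replicate 2, and 1.52 to 5.69 and 5.54 to 41.9 in KO. The part of these markers in the gene differences was not tested.

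Around Sprr2f the shares of differing genes were near those of all tested genes. Of 235 tested genes within 5 Mb on either side, 0 were called (19 higher and 17 lower at an unadjusted p under 0.05), 31 were higher (13.2%) and 32 lower (13.6%) without overlap, and their median log2 fold change was 0.00. The gene with the smallest p there was Dpm3, a dolichol-phosphate mannosyltransferase subunit gene, with 73.5 and 72.8 scaled CPM in WT and 105, 103, 104 and 84.7 in KO (0.43 ± 0.09, limma adjusted p = 0.0837). Selenbp2 had 23.7 and 9.97 in WT and 29.1 to 58.2 in KO. On the whole of chromosome 3, 1 of 918 tested genes was called, and it is Noct, where 0.0166% of all genes were called lower. Without overlap, 14.5% were higher there (12.9% of all genes) and 12.5% lower (12.4%). With the pattern covariate 1 gene was called higher and 2 lower there, of 4 and 15 over all genes. Noct and Sucnr1, the genes called for the genotype average over both days, both lie on chromosome 3, outside the 5 Mb on either side of Sprr2f. At day 5 alone the log2 fold change was 0.07 ± 0.19 (SE) for Noct and 0.68 ± 0.18 for Sucnr1, so the Noct average rests on day 0. Any part of the chromosome in these differences was not tested.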

How the data were processed

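Left kidney RNA from 12 mice was sequenced with 50-base reads. Per the submitters' processing notes, STAR, SAMtools, HTSeq and build GRCm38.p6 were used, and versions and strand handling are not given in the sources used here, so reads of overlapping and antisense genes cannot be told apart. The deposited values are CPM: each column sums to 1000000. All 665652 values (100%, within 0.001) were whole multiples of 1 read, which recovered 16567256 to 19398882 reads per library. Coordinates are from GENCODE M21, which holds 55230 of the 55471 identifiers.

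limma 3.58.1 (empirical Bayes with a trend; R 4.3.3) was fitted to log2(CPM / TMM factor + 0.5) in all 12 libraries as 4 groups. filterByExpr (minimum count 10, total 15) left 18093 genes holding 99.9% of reads. Alternatives on the recovered reads were edgeR 4.0.16 and DESeq2, beside limma-voom, other scaling, filters and pseudocounts, day 0 or Y-linked libraries only, a covariate, and each library left out. The code was tested on simulated data. "Without overlap" means that all 4 KO libraries lay on 1 side of both WT libraries.

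Members and lists were chosen with earlier results of these data known. Named genes were the called genes, the 10 leading genes in each direction by p (mean log2 CPM of at least 1, no overlap, 1.5-fold, no predicted models), genes called with the covariate (at most 10 in each direction), up to 4 genes by p per list, the 6 leading genes in each direction with WT replicate 2 alone 4-fold outside, and the 4 by p near Sprr2f. Others are Arntl, Per2, Per3, Ciart, Clock, Nr1d1, Nr1d2, Dbp, Tsc22d3, Pdk4, Mt1, Edem1, Gstp2, Lpl, Adipoq, Cfd and Car3, named after their values were seen. Of the promoter table from RefSeq, 16 of 19 clock genes had an entry. Some members of these lists are not reported here.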

Additional observations from a re-analysis of the deposited data

Results flagged for a closer look

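In the 4 day 0 KO libraries, 1 value lay far from the others for 5 of 105 named genes checked by Dixon's ratio at its 95% critical value, where chance flags about 1 in 20. KO replicate 2 was the high one for 4 of them. Npas2 was 17.9 scaled CPM there and 12.9 to 13.5 in the other KO libraries, Fkbp5 was 121 against 48.6 to 59.6, and Odc1, the polyamine synthesis enzyme gene, was 2011 against 1052 to 1180, and Edem1 was 136 against 118 to 121. Dpm3 was 84.7 in KO replicate 4 and 103 to 105 in the others.

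The genotype difference of Noct was itself different on the 2 days: the day 5 minus the day 0 effect was 2.26 log2 units (limma adjusted p = 0.0356). In day 0 libraries all 4 KO values were below both WT values, and at day 5 the 2 genotypes overlapped.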

How the results depend on the processing

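No paired analysis was possible because the labels carry no replicate numbers shared between the genotypes. At day 0 the counts of genes higher and lower in KO, 0 and 3, became 226 and 147 with DESeq2, 3 and 3 with RLE factors, 2 and 13 with library size alone, 2 and 7 with no filter, 2 and 4 with a stricter filter, 3 and 5 with a pseudocount of 0.1 CPM, 1 and 3 with 1 CPM, 2 and 8 with only day 0 libraries, 4 and 15 with the pattern covariate, 1 and 2 with only Y-linked libraries and 4 and 16 with edgeR and the covariate, an alternative added after seeing the data. Leaving out each library in turn gave 0 to 421 higher and 1 to 217 lower. At day 5, where 0 were called, there were 37 higher and 3 lower with DESeq2, 2 lower with a pseudocount of 1 CPM, 2 higher and 1 lower with the covariate, and 0 to 15 higher and 0 to 8 lower with a library left out.

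The day by genotype test, 1 higher and 0 lower, gave 28 and 9 with DESeq2, 0 higher with library size alone, no filter or only Y-linked libraries, 3 higher with the covariate in limma or edgeR, and 0 to 43 higher and 0 to 64 lower with a library left out. The average over days, 1 higher and 1 lower, gave 328 and 81 with DESeq2, 0 and 0 with limma-voom, no filter or only Y-linked libraries, 2 lower with library size alone, 8 and 4 with the covariate, 7 and 4 with edgeR and the covariate, and 0 to 317 and 0 to 99 with a library left out.

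With only Y-linked libraries, the median of the clock list was -0.036 and that of the glucocorticoid-responsive list -1.09, and the latter was -1.07 with the covariate. With a library left out they ran from -0.55 to -0.019 and from -1.08 to -0.68. At 2-fold in place of 1.5-fold, genes without overlap numbered 26 higher and 17 lower (193 and 147 at 1.5-fold). With a library left out these were 182 to 1227 and 160 to 1180, and those without overlap at any size 2696 to 5308 and 2644 to 5392, since fewer libraries make non-overlap easier by construction. The pattern calls at day 5 were 42 to 474 higher and 43 to 514 lower with a library left out.

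Reversed signs were found for genes in which WT replicate 2 stood apart. With only Y-linked libraries Prlr was 0.27, Foxq1 0.11, Bhmt 0.21 and Abcb1b 0.20. With a library left out they ran from -4.14 to 0.29, from -3.24 to 0.13, from -2.94 to 0.22 and from -2.74 to 0.21, the highest without WT replicate 2 of day 0. With edgeR and the covariate Prlr was 0.059 and Bhmt 0.30, and Dnase1 ran from -0.15 (without WT replicate 1 of day 0) to 1.01. Signs also turned for fat genes, in which the 2 WT libraries differed. Adipoq was -0.50 with edgeR, -0.48 with DESeq2 and -1.32 with edgeR and the covariate, and Cfd was -1.23, -1.22 and -2.17. With a library left out they ran from -1.52 to 2.85 and from -2.60 to 4.04, and Lpl from -0.19 to 1.73, the lower values of Adipoq and Cfd without WT replicate 1 of day 0 and that of Lpl without WT replicate 2. Lpl was -0.21 with only Y-linked libraries, and Clock was -0.041 with library size alone. The cause of the other changes was not tested. With 2 WT libraries, 1 of each kind, power was limited. On simulated data 64% of 2-fold changes were recovered. Those data held no difference between Y-linked and Xist libraries, so this share does not cover the effect of having 1 of each kind.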
